A study of Arabidopsis thaliana with 3 samples.

Results

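Phloem genes were followed through single cells sorted from lateral root primordia of Arabidopsis thaliana. The 10 genes were 8 regulators of phloem formation (APL, NAC45, NAC86, NAC020, BRX, OPS, CVP2 and SMXL5) and 2 phloem transporters (SUC2 and AHA3), out of 32833 genes in the count table. They were picked by name as known phloem genes, with their values in this table already seen, so their levels are given as a description and without a test. The wells were kept by their gene number: 322 of 573 wells had reads of at least 500 genes and are called cells here. All 10 genes had a read in at least 1 cell, 6 of them in at least 20 cells.

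The material was a single group, with 3 labelled replicates: Col-0 seedlings carrying pHB53:NLS-3xmCherry, a nuclear red reporter driven by the HB53 promoter, taken at 5 days after germination. The material was digested to protoplasts, mCherry-positive cells were collected by fluorescence-activated sorting, and the labels place them at primordium stages I-IV. There was no untreated or mutant group, and the sort selects what the HB53 promoter marks. The wells could not be matched to the replicates, so the cells stand as 1 sample, no p-value was computed, and the 95% intervals (exact binomial) cover counting error alone. Cells had a median of 245742 reads, and the 3 flow cells, taken as technical batches, held 102, 96 and 124 cells with medians of 408532, 440181 and 132330 reads. The reporter's own gene HB53 had a read in 11.5% of cells, and LRP1, a gene named for the primordium, in 55.9%.

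Phloem carries sugars and signals through sieve elements, which lose their nucleus as they mature, and companion cells, which keep it and load sugar into the sieve elements. In the Arabidopsis root the first sieve element file, the protophloem, is set up by DOF transcription factors and by membrane-bound regulators such as BRX and OPS, and is completed by APL and the NAC factors that act after it. A lateral root primordium starts from pericycle cells and has to build its own vascular tissue that joins that of the parent root.

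OPS, CVP2, NAC020 and SMXL5, regulators of early phloem, were more widespread than the late regulators APL, NAC86 and NAC45, with intervals that do not overlap. This did not hold for BRX, also a regulator of early phloem, whose interval (4.08 to 9.80) overlaps that of APL (1.29 to 5.24). OPS (AT3G09070), a polar membrane protein that promotes protophloem differentiation, had a read in 122 of 322 cells, or 37.9% (32.6 to 43.4). CVP2 (AT1G05470), a phosphoinositide phosphatase needed for an unbroken protophloem file, was detected in 54 cells, or 16.8% (12.9 to 21.3). NAC020 (AT1G54330), a NAC transcription factor of the early sieve element lineage, was detected in 48 cells, or 14.9% (11.2 to 19.3). SMXL5 (AT5G57130), which promotes phloem formation together with its relatives SMXL3 and SMXL4, had a read in 43 cells, or 13.4% (9.84 to 17.6). BRX (AT1G31880), a membrane-associated regulator of auxin efflux in the protophloem, was detected in 21 cells, or 6.52% (4.08 to 9.80).

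The late regulators were rare. APL (AT1G79430), a MYB-type factor required for phloem identity, had a read in 9 cells, or 2.80% (1.29 to 5.24). NAC86 (AT5G17260) and NAC45 (AT3G03200), which act after APL in the loss of the sieve element nucleus, were detected in 4 cells and 1 cell, or 1.24% (0.339 to 3.15) and 0.311% (0.00786 to 1.72). Of the transporters, SUC2 (AT1G22710), the sucrose-proton symporter that loads phloem in companion cells, had a read in 30 cells, or 9.32% (6.37 to 13.0). AHA3 (AT5G57350), a plasma membrane proton pump of companion cells, was detected in 8 cells, or 2.48% (1.08 to 4.84). In this order of shares, OPS and CVP2 are the only neighbours whose intervals do not overlap.

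**Figure D1:**
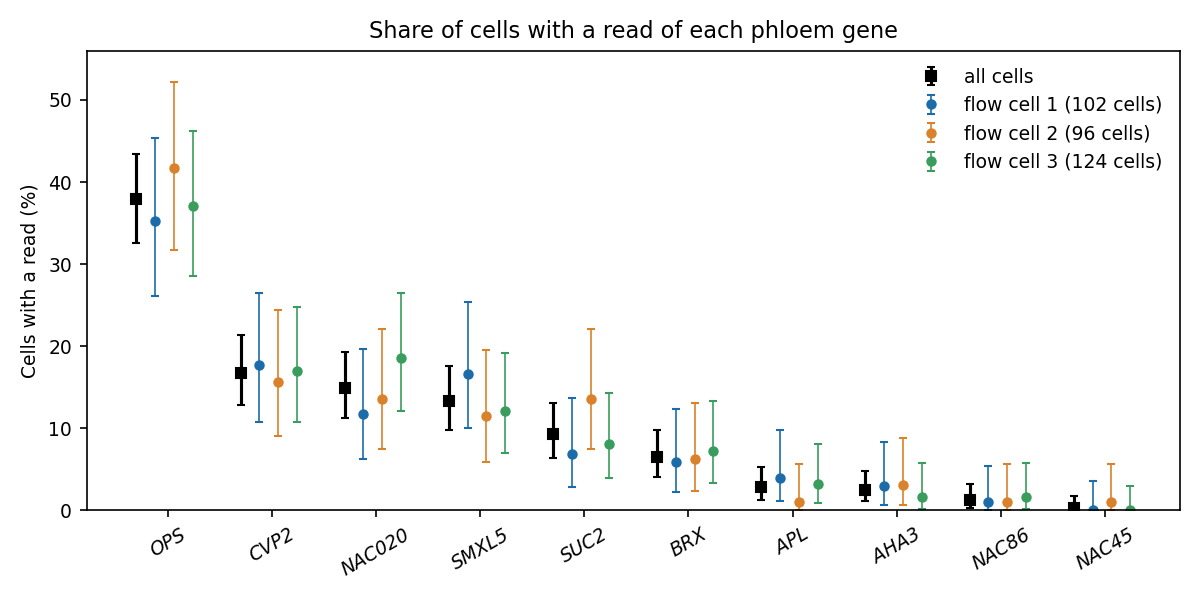
Share of the 322 cells with at least 1 read of each gene, in percent. Black squares are all cells and coloured points the 3 flow cells, with bars for the exact 95% interval (counting error only): OPS stands alone at 37.9%, and APL, AHA3, NAC86 and NAC45 lie below 3%.

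Capture is incomplete, so absence of a read does not show that a cell lacked the RNA. OPS cells were deeper than the rest, with a median of 298964 reads in cells with OPS, against 216752 in cells without it. With 115851 reads drawn from each of the 257 cells that had as many (65 had fewer), the shares were 39.3% for OPS, 18.3% for CVP2, 15.6% for NAC020, 13.2% for SMXL5, 10.1% for SUC2 and 6.23% for BRX. On the same thinned cells APL and AHA3 were each at 1.95%, NAC86 at 1.17% and NAC45 at 0.389%. These 257 cells held 6 of the 9 APL cells and 6 of the 8 AHA3 cells, and thinning removed the reads of 1 more cell of each. Before thinning, a setting added after seeing the data, the same 257 cells gave 43.2% for OPS, 19.1% for CVP2, 16.7% for NAC020, 14.8% for SMXL5, 10.5% for SUC2 and 7.39% for BRX.

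Shares were also taken on each flow cell. OPS was detected in 35.3%, 41.7% and 37.1% of cells on flow cells 1, 2 and 3, and CVP2 in 17.6%, 15.6% and 16.9%. BRX was at 5.88%, 6.25% and 7.26%. SUC2 was at 6.86%, 13.5% and 8.06%, and its flow cell intervals overlap. Each of OPS, CVP2, NAC020, SMXL5, SUC2 and BRX had a read on all 6 plates, with OPS between 30.2% and 46.0% of a plate's cells. APL had 4, 1 and 4 cells on flow cells 1, 2 and 3, and the single NAC45 cell was on flow cell 2.

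Levels within the cells that had a read spread over more than 100-fold, on a scale of CPM (a gene's reads over all reads of the cell, times 1e6), which is not corrected for gene length. OPS ranged from 1.2 to 715.7 CPM with a median of 67.2 CPM. CVP2 ranged from 1.61 to 5087 CPM (median 115.7), and NAC020 from 1.60 to 1157 CPM (median 125.7). SMXL5 ranged from 1.68 to 600.7 CPM with a median of 46.9 CPM. Each of these 4 genes thus had both weak and strong cells.

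SUC2 ranged from 1.96 to 3154 CPM with a median of 146.7 CPM. BRX ranged from 1.11 to 1352 CPM (median 119.6). The reads of the rarer genes were concentrated: the top cell held 53.1% of all AHA3 reads, 37.9% of APL reads, 29.4% of BRX reads and 27.4% of SUC2 reads, but 8.54% of OPS reads. On a length-corrected scale (TPM, from the summed reads of all cells), NAC020 was highest at 64.7, followed by OPS at 29.8, SUC2 at 29.3, CVP2 at 20.5 and BRX at 12.4. SMXL5 stood at 5.79, APL at 2.85, AHA3 at 1.53, NAC86 at 1.08 and NAC45 at 0.977 on this scale. Summed reads weight deep cells, and the order changes where each cell counts equally: the mean TPM over cells, a setting chosen after seeing the data, was 50.7 for NAC020, 31.6 for SUC2, 29.7 for OPS, 27.4 for CVP2 and 13.7 for BRX. APL then stood at 8.44, above SMXL5 at 5.63, with NAC86 at 2.22, AHA3 at 2.00 and NAC45 at 0.655.

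**Figure D2:**
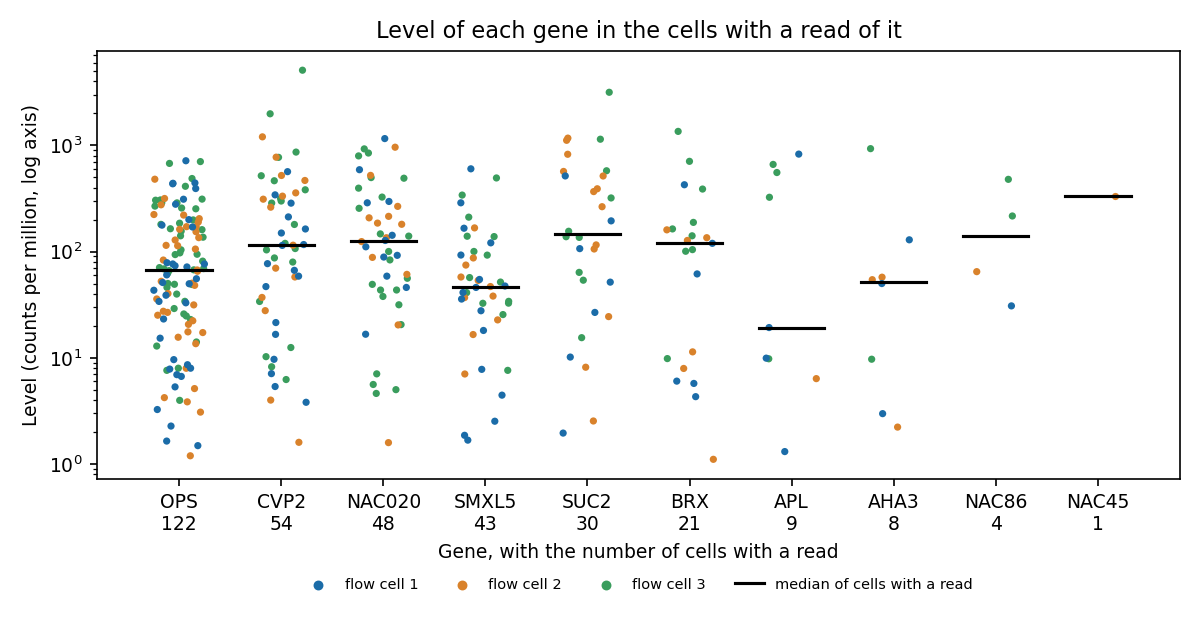
Level of each gene in every cell with a read, in CPM on a log axis, with the flow cell shown by colour and the median as a black line. OPS is found in many cells at a median of 67.2, and the 9 APL cells fall into a set of 4 between 324 and 826 and a set of 5 between 1.31 and 19.3.

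The APL cells split widely in level. The values were 826, 661, 555, 324, 19.3, 9.94, 9.81, 6.38 and 1.31 CPM. The 3 cells at 661, 555 and 324 CPM, all on flow cell 3, also had reads of 4, 5 and 6 other genes of the 10, whereas the cell at 826 CPM on flow cell 1 had none. NAC86 stood at 478 and 216 CPM in 2 flow cell 3 cells, at 64.8 CPM in a flow cell 2 cell and at 30.9 CPM in a flow cell 1 cell. All 4 NAC86 cells had NAC020 reads, and 3 of them had BRX reads. The NAC45 cell had 173 reads (336.6 CPM) and, of the other 9 genes, reads of OPS.

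The rule for a cell cut off few wells near its limit. Of 8 wells with 250 to 499 genes, 1 had a read of a phloem gene (SMXL5), and of 6 wells with 500 to 749 genes, 1 had (SMXL5). Among all 251 wells below 500 genes, 4 had a read of any of the 10 genes, or 1.59% (0.436 to 4.03).

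The next question was how far the genes were found in the same cells. None of the 10 had a read in 130 cells, 1 had in 104 cells, and 2 or more had in 88 cells, or 27.3% (22.5 to 32.5). The last share was 29.4%, 26.0% and 26.6% on flow cells 1, 2 and 3, and 29.2% in thinned cells. Cells with 2 or more were deeper: median reads were 198471 for cells with none, 236722 with 1 and 339520 with 2 or more. The 7 cells with at least 5 of the genes had a median of 184948 reads; 4 of them were on flow cell 3, the shallowest, and 6 of the 7 had more reads than the median of their own flow cell.

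For each gene found in at least 10 cells, the share of cells with a read of a second gene was compared between cells with and without the first. A gene was called where its share was at least 2 times as high in cells with the first gene and higher on each of the 3 flow cells. Of the 15 pairs among NAC020, BRX, OPS, CVP2, SMXL5 and SUC2, 7 were called in at least 1 direction. They were BRX with CVP2, NAC020 and OPS, OPS with CVP2, NAC020 and SMXL5, and NAC020 with SMXL5. No called pair included SUC2. Over all 16460 genes found in at least 10 cells the same rule called 2.28% with NAC020, 3.94% with BRX, 3.55% with OPS, 3.24% with CVP2, 5.32% with SMXL5 and 1.67% with SUC2.

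BRX and NAC020 had the largest ratio of the 15 pairs. BRX had a read in 12 of 48 NAC020 cells (13.6% to 39.6%) and in 3.28% (1.51 to 6.14) of cells without NAC020, a ratio of 7.61, or 6.98 in thinned cells. Conversely, NAC020 was found in 57.1% (34.0 to 78.2) of BRX cells and in 36 of 301 cells without BRX. Both were present in 12 cells, 2, 5 and 5 on flow cells 1, 2 and 3. Of these 12, 7 were the cells with at least 5 of the 10 genes, which also held 6 of the 10 BRX cells with CVP2. CVP2 was found in 47.6% (25.7 to 70.2) of BRX cells and in 14.6% of the others. SMXL5 was found in 31.3% (18.7 to 46.3) of NAC020 cells and in 10.2% of the others.

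With OPS as the first gene, NAC020 was found in 26.2% of OPS cells and in 8.00% of cells without OPS, and BRX in 11.5% and 3.50%. CVP2 was found in 25.4% and 11.5% of these cells, a ratio of 2.21 that was 1.91 in thinned cells, where the pair was no longer called and the other 6 were. In thinned cells the rule called 2.41% of all genes with NAC020, 3.98% with BRX, 3.42% with OPS, 3.28% with CVP2, 6.54% with SMXL5 and 2.18% with SUC2. With SUC2 as the first gene, CVP2 was found in 16.7% (5.64 to 34.7) of cells with SUC2 and in 16.8% (12.7 to 21.6) of cells without it. For SMXL5 these shares were 10.0% (2.11 to 26.5) and 13.7% (9.97 to 18.2). NAC020 was found in 23.3% (9.93 to 42.3) of SUC2 cells and in 41 of 292 others (10.3% to 18.6%), a ratio of 1.66 that is below the limit. With 30 SUC2 cells these intervals are wide.

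**Figure D3:**
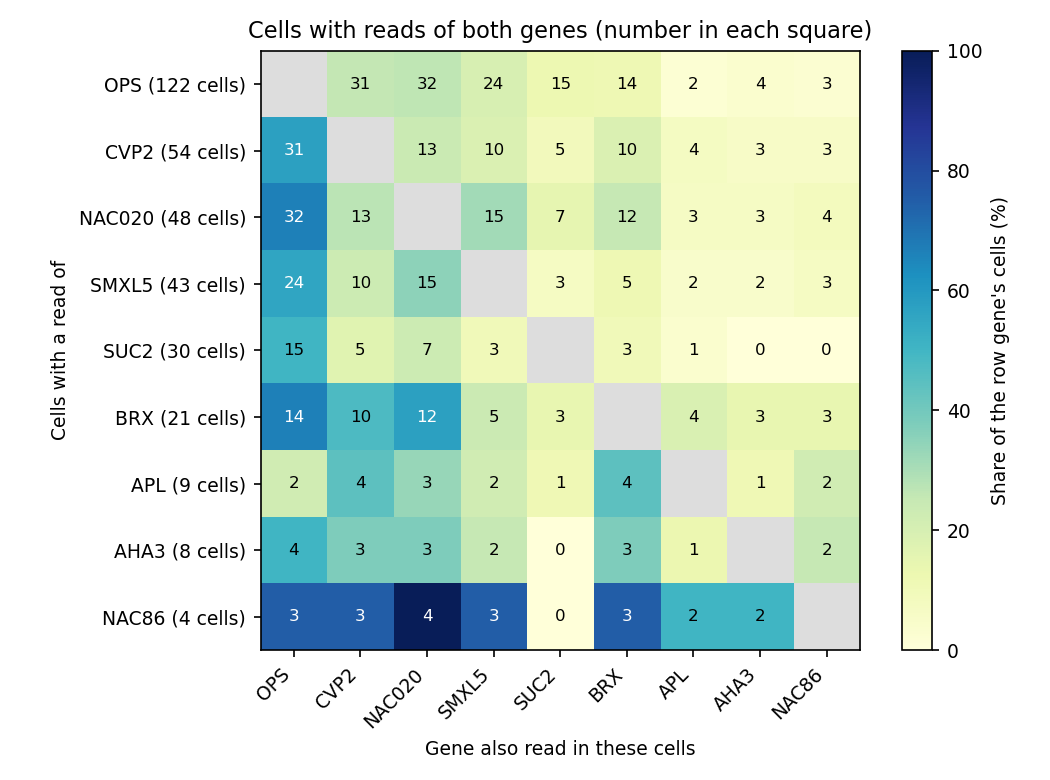
For each gene in a row, the share of its cells (percent, by colour) that also had a read of the gene in the column, with the number of such cells in each square. NAC45, with 1 cell, is left out. NAC020 is read in 12 of the 21 BRX cells and in all 4 NAC86 cells, against 14.9% of all cells. SUC2 is read in none of the 8 AHA3 or 4 NAC86 cells, against 9.32% of all cells. These are too few cells to show that SUC2 is absent with either gene.

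Each gene's cells were also counted for company. Of BRX cells, 71.4% (15 of 21) had at least 2 of the other 9 genes, against 23.3% of cells without BRX. For NAC020 these shares were 47.9% and 17.2%, for CVP2 40.7% and 18.3%, and for SMXL5 37.2% and 56 of 279 cells. They were 33.3% and 24.0% for SUC2, and 27.0% and 8.00% for OPS. A gene is not counted in its own company, so the shares of different genes count different sets of 9 and are not set against each other. The 4 BRX cells with the highest levels, at 1352, 707, 426 and 388 CPM, had 4 to 6 others each, with NAC020 and CVP2 in all 4. OPS was alone in 41.0% of its cells, SUC2 in 40.0%, NAC020 in 14.6% and BRX in 14.3%. Cells without the gene had none of the other 9 in 130 of 200 cases for OPS and 130 of 292 for SUC2. For NAC020 this was 130 of 274 cases, and for BRX 130 of 301. These shares, too, are not set against each other between genes.

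The upstream sequences of NAC020, BRX and OPS, of which each was called with both others, are shown because DOF factors, which bind the core AAAG, set up this tissue. The 250 bases before the annotated start were read from RefSeq's TAIR10.1 genome, in the direction of the gene, with AAAG on either strand (AAAG or CTTT, non-overlapping) in capitals. NAC020 lies at chr1:20280953-20281202 (minus strand), BRX at chr1:11445240-11445489 (plus strand) and OPS at chr3:2771376-2771625 (minus strand).
NAC020: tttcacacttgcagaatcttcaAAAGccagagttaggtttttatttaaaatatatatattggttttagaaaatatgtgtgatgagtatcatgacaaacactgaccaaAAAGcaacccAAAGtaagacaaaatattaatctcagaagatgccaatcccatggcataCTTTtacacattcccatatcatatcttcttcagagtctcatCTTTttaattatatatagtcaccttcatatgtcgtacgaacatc
BRX: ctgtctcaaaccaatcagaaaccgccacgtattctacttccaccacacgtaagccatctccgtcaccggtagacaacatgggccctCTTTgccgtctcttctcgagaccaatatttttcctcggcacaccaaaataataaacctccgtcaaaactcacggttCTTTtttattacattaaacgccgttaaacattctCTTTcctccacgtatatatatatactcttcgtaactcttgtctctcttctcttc
OPS: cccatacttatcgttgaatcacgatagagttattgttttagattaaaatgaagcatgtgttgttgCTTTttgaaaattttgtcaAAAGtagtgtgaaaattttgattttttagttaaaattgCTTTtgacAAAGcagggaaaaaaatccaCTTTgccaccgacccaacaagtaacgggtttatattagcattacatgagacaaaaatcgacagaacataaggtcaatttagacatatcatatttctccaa
NAC020 and OPS had 5 matches each, a number that 39.4% of 27443 such windows reach, and BRX had 3 (76.3%). Of the other genes, SMXL5 had 9 matches (3.21%), APL 7 (13.6%), NAC86 6 (24.3%), SUC2 5 (39.4%), NAC45 and AHA3 4 each (58.3%) and CVP2 3 (76.3%). At least 1 match was present in 98.0% of the windows, with a median of 4. A match describes the letters of a window and not a bound site.

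Other genes were then set against the 10, from lists of known phloem genes (42 genes) and of the SUC and AHA families (14), whose members are not all phloem genes. Of these 56 listed genes, 55 had a read in some cell, and 38 had in at least 10 cells and could be compared. The DOF factors TMO6, OBP2 and DOF6 were found in 56.5%, 29.5% and 8.70% of cells. In the protophloem signalling list the highest were MAKR5 (49.7%), CRN (37.6%), a membrane pseudokinase, and PAX (28.6%), the kinase that works with BRX. Of the sieve element genes NEN2, NEN1 and NAC028, of which NEN2 and NEN1 belong to an exonuclease family tied to nuclear loss, the shares were 10.6%, 6.52% and 4.97%, and SEOR1, a sieve element protein gene of the same list, was found in 3 cells. The companion cell list was led by OPT3 (18.3%), SUS6 (11.8%) and NAKR1 (6.21%), while PP2-A1 was found in 1 cell.

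BRX and NAC020 had the most listed genes called. Of the 38 tested, 12 were called with NAC020, 15 with BRX, 10 with CVP2, 9 with SMXL5, 6 with OPS and 0 with SUC2. The median ratio of the 38 was 1.42 for NAC020, 1.95 for BRX, 1.25 for CVP2, 1.49 for SMXL5, 1.33 for OPS and 0.917 for SUC2, against 0.934, 1.10, 1.17, 1.17, 1.19 and 0.987 over all genes tested. Of the 38, 10 were SUC or AHA family genes, and 1 of these was called (AHA8, with BRX). In thinned cells the numbers were 10, 12, 7, 9, 5 and 0. The DOF list gave 5 of 6 calls with NAC020 (median ratio 4.99) and 4 of 6 with BRX (4.18). Some BRX calls rest largely on the 7 cells with at least 5 of the 10 genes, described below. These held all 7 BRX cells with DOF6, 7 of the 8 with HCA2 and all 5 with NEN2. None of the 4 BRX cells with NAKR1 was among them, and the other BRX calls lay in between. All 7 also had NAC020. They held 7 of the 12 NAC020 cells with DOF6, 7 of the 13 with HCA2 and 6 of the 11 with NAC028. Of 32 genes from lists of other tissues, the primordium and mitosis, 2 were called with NAC020, 0 with BRX, 2 with CVP2, 4 with SMXL5, 2 with OPS and 1 with SUC2. The 4 with SMXL5 included KNOLLE, the syntaxin of the dividing cell's plate, found in 18.6% of SMXL5 cells and in 5.02% of the others. AUR2, also on the mitosis list, was called with both SMXL5 and OPS, and the call with SUC2 was the mitosis gene CYCB2;4. For the 5 mitosis genes the median ratio was 2.00 with OPS (1.74 in thinned cells) and 1.62 with SMXL5 (2.19 in thinned cells). It was 1.24 with CVP2, 1.02 with SUC2, 0.901 with NAC020 and 0.754 with BRX. In thinned cells these 4 were 1.24, 0.555, 0.723 and 0.941. The part of division in the OPS and SMXL5 shares was not tested. Both calls of companion cell genes, of 4 tested, were with BRX (SUS6 and NAKR1).

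NAC028, a NAC factor related to NAC020, was found in 22.9% of NAC020 cells and in 1.82% of the others, and in 42.9% of BRX cells and in 2.33% of the others. PEAR2, a mobile DOF factor of the early phloem, was found in 12 of 48 NAC020 cells and in 2.92% of the others. HCA2, another DOF factor, was found in 38.1% of BRX cells and in 5.98% of the others. BAM3, the receptor kinase for the CLE45 peptide that restrains protophloem, was found in 25.9% of CVP2 cells and in 8.21% of the others. CLE45 itself was without a read throughout (0 of 322), so up to 0.932% of cells could have had 1 at a limit of 3 counts. TMO6 was widespread, in 58.3% of NAC020 cells and in 56.2% of the others. While 12 of the 38 tested genes were called with NAC020, some genes of the same lists were less frequent with it. NEN1 was found in 1 of 48 NAC020 cells and in 20 of 274 others. CLERK was found in 0 of 48 and 24 of 274 of these cells, and BRXL3 in 0 of 48 and 16 of 274. With 48 NAC020 cells, these low counts do not show that the genes are absent with NAC020.

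**Figure D4:**
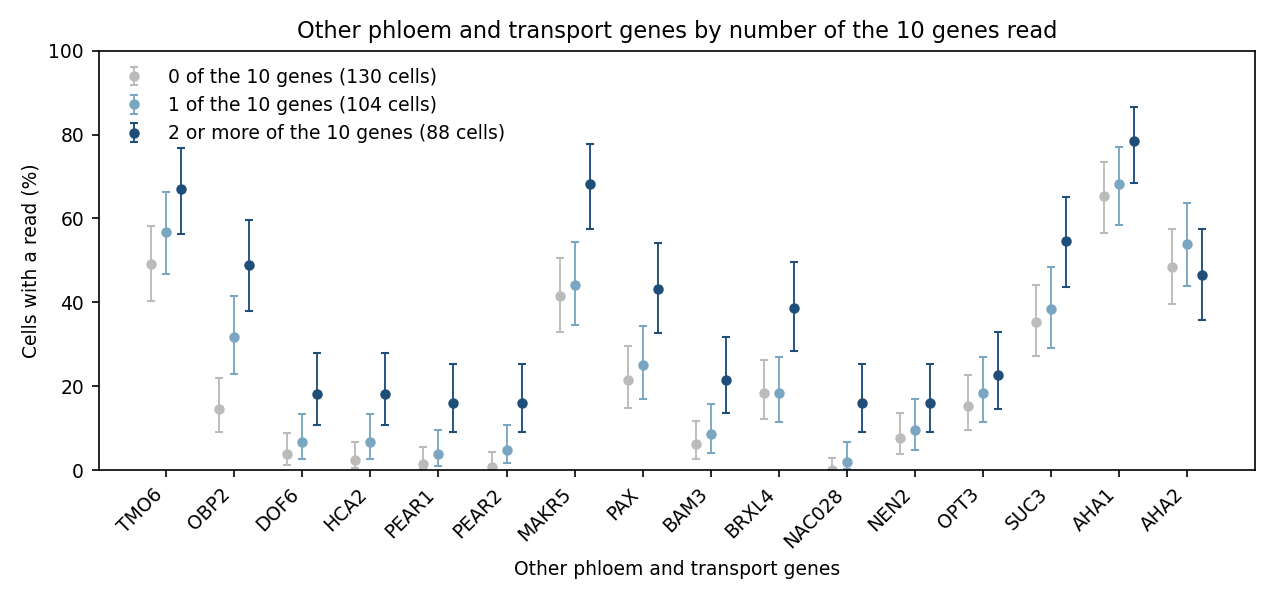
Share of cells with a read of other phloem and transport genes (percent) in cells with 0, 1 and 2 or more of the 10 genes, with exact 95% intervals. NAC028 was found in 0 of 130, 2 of 104 and 14 of 88 cells, or 15.9% of those with 2 or more.

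Lists of other genes and tissues were counted along the same series. At least 1 DOF factor had a read in 56.2% of cells with none of the 10 genes, in 78 of 104 cells with 1 and in 89.8% with 2 or more. The list of procambium and xylem precursor genes was at 66.9%, 65.4% and 84.1%, and the SUC family at 61.5%, 57.7% and 84.1%. The companion cell list was at 40.8%, 40.4% and 46.6%. A higher share with 2 or more genes was thus not particular to phloem lists. Endodermis markers were found in 23.1%, 22.1% and 11.4% of these cells, and xylem markers in 7.69%, 7.69% and 6.82%. Pericycle markers were found in 45.4%, 44.2% and 59.1%, and the genes of this list differed: PHO1, a phosphate exporter gene, was at 30.8%, 28.8% and 53.4%, and MYB68, a MYB factor gene, at 16.9%, 19.2% and 7.95%. Median depth rises along the same series, as given above, and its part in these shares was not tested beyond the thinned cells, where the DOF shares were 56.5%, 68.7% and 91.5%.

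The 7 cells with at least 5 of the 10 genes, 1, 2 and 4 on flow cells 1, 2 and 3, make up 2.17% (0.878 to 4.43) of cells. They were chosen by their count of these genes, so their levels are a description. A flow cell 3 cell with 184948 reads held 7 genes: AHA3 172, BRX 250, CVP2 366, NAC020 147, APL 60, NAC86 40 and SMXL5 39 reads. A flow cell 2 cell with 447754 reads also held 7, led by CVP2 with 209 reads and NAC020 with 83. The cell with the highest SUC2 level, 3154 CPM (501 reads of 158840), held APL with 105 reads and NAC020 with 147. All 7 had NAC020 (43.5 to 960 CPM) and BRX (101 to 1352 CPM).

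Some genes outside the 10 were read in most of the same cells, and others of the same lists were not. These cells are also part of the BRX and NAC020 counts above, so the 2 are not separate results. All 7 had DOF6 (112 to 1562 CPM) and HCA2 (174 to 1805 CPM), which were found in 6.67% and 6.03% of the other 315 cells. TMO6, OBP2 and PAX were also present in all 7, against 55.6%, 27.9% and 27.0% of the others. NAC028 was present in 6, against 3.17% of the others. NEN2, BAM3 and SMXL4 were each present in 5. Of the same lists, MAKR5 was present in 3 of the 7, against 49.7% of all 322 cells. SMXL3, NEN1 and CALS7 were present in 1 each, and BRXL3, CLERK and SEOR1 in none. Markers of other tissues and of mitosis were also read among the 7 cells: PHO1 and PHB in 3 each, and SKOR, LHW, CPC, RBCS1A, CAB1 and KNOLLE in 2 each. IRX3, SMB, HB8, HB15, AUR2 and the mitosis gene AT4G37490 were read in 1 each. Their part in these cells was not tested. Of the primordium genes, LRP1 was read in 3, HB53 and IAA28 in 2 each, and LBD16 and PUCHI in 1 each. No endodermis marker had a read in any of the 7, nor had WOX5 or BBM, genes of the stem cell niche, which were found in 12.4% and 10.8% of the others. AHA1, a widespread proton pump, was present in 3 of 7, against 70.5% of the others.

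**Figure D5:**
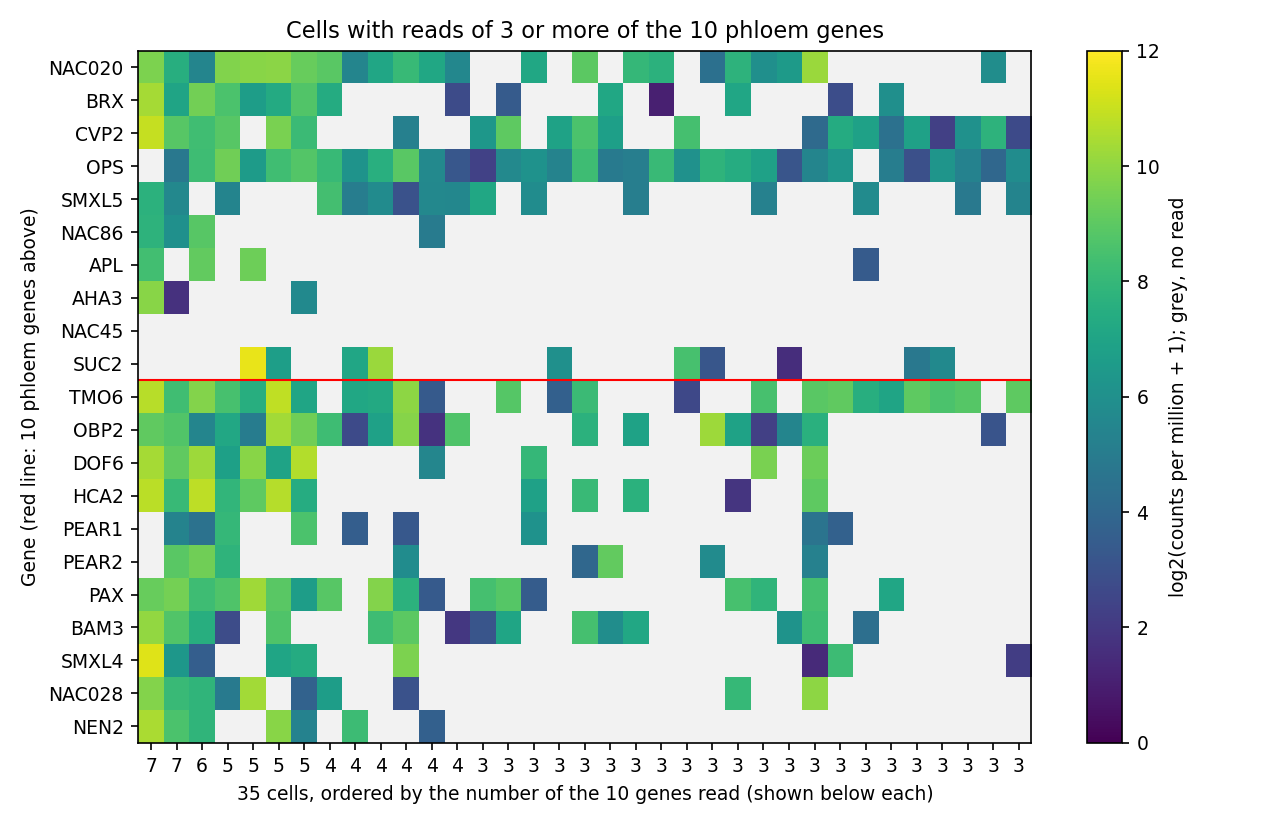
The 35 cells with at least 3 of the 10 genes, 1 per column, ordered by how many of the 10 they had (below each), with levels as log2(CPM + 1) by colour and grey for no read. Above the red line are the 10 genes and below it other phloem genes. NAC020 and BRX are filled in the 7 leftmost cells, which had 5 to 7 of the genes, and NAC45 in none.

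Levels across all 322 cells gave a related picture. Pearson correlations of log2(CPM + 1), with flow cell means removed, were 0.42 for BRX and NAC020, 0.32 for CVP2 and BRX, 0.31 for NAC020 and OPS and 0.26 for NAC020 and SMXL5. SUC2 stood between -0.015 and 0.11 with the other genes. The cells share depth and sorting, and most values are 0. Among 13952 genes found in at least 20 cells, the closest to NAC020 were NAT7, a nucleobase-ascorbate transporter gene (0.52), AT5G23360 (0.45) and JOSL (0.44), and NAT7 had a read in 22 of the 48 NAC020 cells.

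The closest to BRX were AT2G28810 (0.46), NAT7 (0.44) and HCA2 (0.44), and to CVP2 BRX (0.32), HCA2 (0.29) and BAM3 (0.28). By Spearman's rank correlation the BRX values were 0.30, 0.34 and 0.31, below NAC020 (0.35), and the Pearson value of NAT7 with BRX was 0.071 on flow cell 1. HCA2 ranked 37 for CVP2 by Spearman. For SMXL5 the closest were AT4G37095 (0.32), DOF6 (0.31) and NAT7 (0.29), and for OPS the kinesin gene ATK1 (0.34), AT3G20150 (0.32) and NAC020 (0.31). SUC2 was closest to PEN1, a triterpene synthase gene (0.31), NCED3, an enzyme of abscisic acid synthesis (0.28), and AT3G60590 (0.22, rank 20 by Spearman). NCED3 had a read in 76.7% of SUC2 cells and in 36.0% of the others.

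Cells were also grouped into 7 clusters by genes outside the lists and the 10. Cluster 1, with 102 cells, led by ZPR1, NAC020 (itself not used for clustering) and HVA22E, had the highest share of cells with several of the genes: 44.1% (34.3 to 54.3) had 2 or more. Which cluster was highest depended on the clustering: at a lower resolution it again matched cluster 1, but at a higher resolution, or without removing flow cell means, it was a smaller cluster that best matched cluster 7. In cluster 7, with 14 cells, led by AT4G24265, AT1G11220 and AT3G02640, the share was 42.9% (17.7 to 71.1), and in cluster 6, with 18 cells, led by AT1G14630, AT1G61600 and RGL2, it was 33.3% (13.3 to 59.0). It was 7.69% (2.14 to 18.5) in cluster 3, whose cells had the fewest detected genes (median 2042.5) and which was led by ATCG00260, AT2G07665 and ATCG00690. Cluster 2 (led by BBM, AT1G18850 and STY1), cluster 4 (AT4G11320, DR4 and AT4G33420) and cluster 5 (AT1G30475, HSD3 and AT5G65380) stood at 22.2%, 19.6% and 16.1%. Reads of at least 2 of the 5 listed mitosis genes were found in 78.6% of cluster 7 cells, and in at most 7.41% of any other cluster. Cluster 7 also had the most reads per cell (median 471349). The part of division and depth in its share was not tested. The clusters were not given cell type names.

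NAC020 was found in 33.3% (24.3 to 43.4) of cluster 1 cells, on every flow cell (29.4%, 31.3% and 38.9%), and in 0 of 51 cells of cluster 4, where up to 5.88% could have had a read at a limit of 3 counts. OPS was found in 52.9% of cluster 1 and in 64.3% of cluster 7 cells, and in 17.3% of cluster 3 cells. BRX was highest in cluster 6, at 22.2% (6.41 to 47.6), with an interval that overlaps the 9.80% (4.80 to 17.3) of cluster 1. SUC2 stood at 11.8% in both clusters 1 and 4, 9.26% in cluster 2, 7.69% in cluster 3, 6.45% in cluster 5 and 5.56% in cluster 6. It was found in 0 of 14 cluster 7 cells, which allows up to 21.4% at a limit of 3 counts and 23.2% by the exact interval. Of the 7 cells with at least 5 genes, 4 were in cluster 1, 2 in cluster 6 and 1 in cluster 7.

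Stretches as long as a read, 150 bases, were compared between annotated transcripts. For 8 of the 10 genes none was shared with a transcript of another gene. For BRX 98.1% were unshared, the rest shared with AT2G21030, which had 86 reads in 1 cell, and for NAC45 77.7%, where its gene overlaps AT3G03190 on the other strand, without a read in any cell. Whether counting used strand is unknown here, so the NAC45 value is uncertain.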

How the data were processed

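Protoplasts sorted for a nuclear reporter were sequenced as single cells in plate wells. The authors deposited raw counts of reads per gene, 32833 genes by 573 wells, plus a list of raw file names that give flow cell and plate. The build named is TAIR10, per the submitters' processing notes. For the aligner, counter and strand setting: not given in the sources used here. The labels name no molecular identifiers, so PCR copies are counted repeatedly and intervals cover counting error only. Columns of no sample in use numbered 0. Wells with at least 500 genes were kept; doublets were not searched for, and a well with more than 1 cell cannot be told apart. The genes and lists were chosen with earlier results of these data known. Named genes were the 10, the 3 most widespread of each list, the 3 most correlated with each gene, the 3 leading genes of each cluster, and others a result turns on. Clusters used Leiden on variable genes outside all lists. Shares have exact 95% Clopper-Pearson intervals. The calling script was tested on simulated data with OPS as the first gene only, at a ratio above the limit used. First genes with fewer cells, such as BRX, were not simulated. Thinning drew 115851 reads per cell, percentile 20 of totals. Alternatives changed read minimum, fold, thinning, batch and clustering. Python 3.11.15, numpy 2.4.6, pandas 2.3.3, scipy 1.17.1, scikit-learn 1.9.0, igraph 0.11.9 and leidenalg 0.10.2 were used. Sequences came from RefSeq's TAIR10.1, whose name differs from the build of the counts.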

Additional observations from a re-analysis of the deposited data

Results flagged for a closer look

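Reads of SUC2 appeared outside the cells described. A well of flow cell 1 with 8266 reads and 70 genes, below the limit of 500 genes, had 765 SUC2 reads, or 9.25% of its reads. The cause was not tested.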

How the results depend on the processing

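Leaving out each replicate in turn was not run, since the wells carry no replicate number. No paired analysis was possible because the labelled replicate numbers could not be matched to wells. With all wells that had a read in place of cells, the share with 2 or more of the genes was 15.4%, the called pairs were 12 and the called other listed genes 32, in a setting that adds 251 wells of few genes. With a fold limit of 3, 12 other listed genes were called, against 21 with at least 1 of the genes at a limit of 2. The highest share of cells with 2 or more genes in any cluster, 44.1% as reported, was 58.8% (34 cells) at a clustering resolution of 1.2 and 58.1% (31 cells) without removing flow cell means; these clusters best matched cluster 7 (overlap 0.41 and 0.45), not cluster 1, and the cause was not tested. The other 41 settings of these results stayed within their limits, with 5 to 10 pairs called, 18 to 28 other listed genes (20 without the SUC and AHA families, a setting chosen after seeing the data) and 23.6% to 31.9% of cells with 2 or more genes. Results for single genes moved in 15 settings and stayed in 161; NAC45 was at 0 without flow cell 2, its only cell being there. The shares of APL, AHA3, NAC86 and NAC45 rest on 9, 8, 4 and 1 cells.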
